A study of Homo sapiens with 9 samples.

Results

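The double-stranded RNA (dsRNA) sensors OAS1, OAS2, OAS3, OASL, EIF2AK2, ADAR and ZBP1 were examined in ATAC-seq peak lists of HEK293T, an established cell line from human embryonic kidney. ATAC-seq marks open chromatin by the insertion of adapters with the transposase Tn5. The 7 genes were taken by name from 20037 protein-coding genes of the RefSeq table for GRCh38.p14. All peaks in the body of these genes or within 10 kb of it were then collected, which gave 35 peaks in 4 lists. Overlapping peaks (at least 1 bp in common) formed 11 regions, out of 71597 regions formed in the same way over the whole genome. The control was wild type for the family of RNA-binding proteins under study and received a non-targeting CRISPR/Cas9 guide. The other groups were knockouts of IGF2BP1, IGF2BP2 and IGF2BP3, made by transient transfection with a non-integrating plasmid carrying 3 guides and GFP, after which single green cells were sorted and grown, and all groups were otherwise untreated. The labels give 2 libraries for the control, 3 for the IGF2BP1 knockout, and 2 each for the IGF2BP2 and IGF2BP3 knockouts. The labels place the control and the IGF2BP2 and IGF2BP3 knockouts in batches 2 and 3, and the IGF2BP1 knockout in batches 1, 2 and 3. Lists of the knockouts are also called lists without IGF2BP1, IGF2BP2 or IGF2BP3. Each knockout was 1 clone, and the effects of clone and of genotype cannot be told apart. Whether the control was a clone is not stated in the labels. The authors deposited 1 list per group, with positions and no heights or scores. No difference between lists could therefore be set against a spread between libraries, and no test was made.

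The members recognise RNA duplexes, which arise in viral infection and from the cell's own inverted repeats. OAS1, OAS2 and OAS3 are synthetases that make oligoadenylates when bound to dsRNA, which serve as second messengers of the antiviral response. OASL is a relative without this synthetase activity. EIF2AK2, also called PKR, is a kinase that phosphorylates the translation factor eIF2 and halts protein synthesis. ADAR deaminates adenosine to inosine in dsRNA and thereby hides the cell's own duplexes from the other sensors. ZBP1 binds Z-form nucleic acid and can start necroptosis, and is a different gene from the zipcode-binding protein after which IGF2BP1 was once named. Most of these genes are induced by interferon through the interferon-stimulated response element (ISRE), a pair of GAAA half-sites.

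The lists differed in length, from 39194 peaks in the control to 50917 without IGF2BP1, 60262 without IGF2BP2 and 44041 without IGF2BP3. Median peak widths in the same order were 771, 834, 651 and 713 bp. Read depth was unknown, and a longer list can hold a peak that a shorter list misses. Width is the only graded value of a peak here. It is given in bp and as a percentile, the share of the list's peaks that are narrower. Start-site peaks, which lie within 1 kb of a gene's start, were present in all 4 lists at the kidney lineage gene LHX1 and in 0 lists at PAX2. Of the genes PTPRC, CD3E and ALB of other lineages, CD3E had such a peak in the IGF2BP1 knockout list, and 0 lists had one at the others.

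The RefSeq promoter table held OAS1, OAS3, EIF2AK2 and ADAR, and not OAS2, OASL or ZBP1. The bases before the start are shown for 3 genes that differ in the lists. OAS3 had a peak in some lists, OAS1 in none, and EIF2AK2 in all. Bases are given 5′ to 3′ on the gene's strand (GRCh38.p14), from base -150 relative to the start, which is base 0. The stretch ends at base -1 for OAS1 (chr12:112906812-112906961, plus strand) and OAS3 (chr12:112938324-112938473, plus strand), and at base 3 for EIF2AK2 (chr2:37156977-37157130, minus strand). Capitals mark pairs of GAAA that are 1 or 2 bases apart.
OAS1: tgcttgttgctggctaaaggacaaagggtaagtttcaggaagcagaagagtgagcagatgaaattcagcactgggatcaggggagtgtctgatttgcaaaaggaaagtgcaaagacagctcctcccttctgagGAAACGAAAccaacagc
OAS3: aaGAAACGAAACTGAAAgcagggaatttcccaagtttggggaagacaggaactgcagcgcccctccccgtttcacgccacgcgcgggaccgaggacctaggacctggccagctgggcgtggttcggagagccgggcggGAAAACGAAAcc
EIF2AK2: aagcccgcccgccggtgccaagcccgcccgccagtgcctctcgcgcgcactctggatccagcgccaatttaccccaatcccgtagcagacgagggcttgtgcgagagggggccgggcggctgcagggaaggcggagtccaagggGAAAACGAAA

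Both strands of each 300-base promoter were searched, from 250 bases before the start onward. The ISRE core, written here as GAAA, 2 bases and GAAA, was found in 3.57% of the 35116 promoters in the table. OAS3 had 2 such matches, at bases -143 to -134 and -12 to -3. EIF2AK2 had 1, at bases -6 to 3, so it lay across the start. A spacing of 1 base, added after the promoters had been read, occurred in 3.12% of promoters. It occurred at bases -17 to -9 in OAS1 and at -148 to -140 in OAS3, where it overlaps the first match above. The core of the gamma-activated site (TTC, 3 bases, GAA) occurred in 7.66% of promoters and, among the members, at bases -168 to -160 of OAS1. The GC box GGGCGG occurred in 45.0% of promoters, and was found 4 times in EIF2AK2, once in OAS3 and once at the inner ADAR start. The letters CCAAT occurred in 34.6% and were found at each ADAR start and in EIF2AK2. The promoters of OAS1 and EIF2AK2 differed most in composition. Bases G and C made up 44.0% of the OAS1 promoter and 72.3% of the EIF2AK2 promoter, and the dinucleotide CG occurred 1 and 30 times. Over all promoters the medians were 58.7% and 14. OAS3 lay between these genes with 61.3% and 20, and the 3 annotated ADAR starts had 47.7 to 53.0% and 13 or 14.

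Peaks near the members numbered 7 in the control list, 9 in the IGF2BP1 knockout list, 10 in the IGF2BP2 knockout list and 9 in the IGF2BP3 knockout list. These were 0.0179%, 0.0177%, 0.0166% and 0.0204% of the peaks in each list, in the same order. When every list was reduced to its 39194 widest peaks, the length of the control list, the counts were 7, 7, 5 and 7. This cut left out no control peak, so counts could fall in the knockout lists alone. The narrowest peaks kept measured 215 bp in the control list and 612, 541 and 401 bp in the knockout lists in order. A lower knockout count after the cut is therefore partly built in. All 7 control peaks of the full lists had a counterpart in every knockout list. Over the whole genome, 29686 regions were in all 4 lists and the control list held 39194 peaks, so most control peaks had such counterparts. The regions with the 7 control peaks were 7 of the 11 found near the members. Of the 44916 regions within 10 kb of a protein-coding gene, 48.9% were in all 4 lists, and of all regions 41.5%. With 11 regions, this count does not set the members apart from other genes. As every control peak lay in a shared region, each of the other 4 regions was absent from the control list. They were the start of OAS3 (IGF2BP1 and IGF2BP3 knockouts), a site beside ZBP1 (all 3 knockouts), and a site in ADAR and another beside ZBP1 (IGF2BP2 knockout). These patterns made up 1.20%, 5.65% and 12.0% of the 44916 regions near protein-coding genes, in the same order. The control list was the shortest, and the share of all regions absent from it is not given here. The 28 peaks of the shared regions had a median width of 844 bp and ranged from 280 to 1578 bp. The 7 peaks of the other regions had a median of 450 bp and ranged from 316 to 836 bp. The farthest region inside the 10 kb limit was 9.3 kb from ZBP1, and the nearest outside it was 11.3 kb from EIF2AK2.

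A start-site peak was counted within 1 kb of the outermost annotated start, or of either gene end for OAS2, OASL and ZBP1, whose strand the promoter table does not give. EIF2AK2, ADAR and OASL had one in all 4 lists, OAS3 in 2 lists, and OAS1, OAS2 and ZBP1 in 0 lists. Over all protein-coding genes, 61.7% had one in all 4 lists and 31.6% in no list. By list, 3 members had one in the control (64.2% of all genes), 4 without IGF2BP1 (66.1%), 3 without IGF2BP2 (65.7%) and 4 without IGF2BP3 (64.9%). Of the 4 members without one in the control, 1 (OAS3) gained it in the list without IGF2BP1, where 7.40% of such genes did. In the IGF2BP2 knockout 0 members gained one, against 7.90% of genes. In the IGF2BP3 knockout 1 member gained one, against 6.07% of genes. Of the 3 members with one in the control, 0 lost it in any knockout, where 1.15%, 2.10% and 2.29% of such genes did. With so few members, these shares do not set the group apart from other genes.

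The synthetase genes OAS1, OAS3 and OAS2 lie side by side in this order on chromosome 12, over 104.8 kb from 112906962 to 113011723. The cluster held 1 region, at the start of OAS3 (identifier 4940). The peak spanned chr12:112938042-112938877 without IGF2BP1 (836 bp) and chr12:112938155-112938756 without IGF2BP3 (602 bp). The control and IGF2BP2 knockout lists had no peak there, and their nearest peaks were 92.5 kb from the OAS3 start. The site was missing from the longest list as well as from the shortest, and whether read depth plays a part was not tested. The peak covered the start in both lists that held it, reaching 432 bp before and 403 bp after it without IGF2BP1, and 319 bp before and 282 bp after it without IGF2BP3. All GAAA pairs in capitals in the OAS3 promoter above lay inside both peaks.

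The OAS3 peaks were of middling width for their lists, at percentile 50.2 without IGF2BP1 and 36.9 without IGF2BP3. Among start-site peaks they were narrow, at percentiles 12.6 and 7.25. Presence in these 2 lists alone was found at 62 of 20037 genes (0.309%), and in 1.20% of regions within 10 kb of a protein-coding gene. Of 5441 peaks in the IGF2BP1 knockout list within 50 bp of the same width, 8.67% had no counterpart in the control and IGF2BP2 knockout lists. For 5515 such peaks in the IGF2BP3 knockout list, the share was 12.5%. Both shares take 1 list on its own, whether or not the other of these knockout lists held the peak. They therefore do not describe sites held by both lists.

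**Figure D1:**
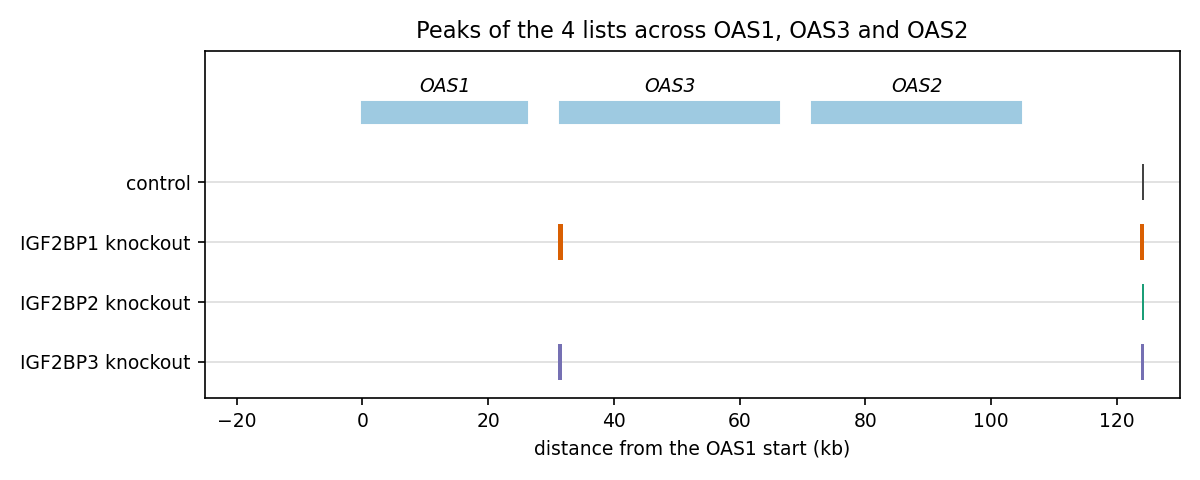
Peaks (coloured bars, to scale) of the 4 lists across OAS1, OAS3 and OAS2, plotted as distance from the OAS1 start in kb, with gene bodies in blue. The OAS3 start carries a peak in the IGF2BP1 and IGF2BP3 knockout lists, and the peak at the right, 19.0 kb beyond OAS2, is in all 4.

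OAS1 itself (identifier 4938) had no peak in its body in any list. The OAS3 peak, which lies within 10 kb of its far end, was the single peak counted for it. The distance from the OAS1 start to the nearest peak was 124 kb in the control, 31.1 kb without IGF2BP1, 115 kb without IGF2BP2 and 31.2 kb without IGF2BP3. OAS2 (identifier 4939) had 0 peaks within 10 kb in any list. Over all protein-coding genes the median was 2 peaks within 10 kb in each list, and 12.6 to 16.2% of genes had 0. The cluster lay in a long stretch without peaks in the control and IGF2BP2 knockout lists. The flanking peaks were 409.1 kb apart in the control and 239.1 kb apart without IGF2BP2, against median distances between neighbouring peaks of 33.3 and 25 kb. These stretches were longer than 97.7% and 97.8% of those in their lists. The flanking peaks were 206.4 kb apart without IGF2BP1 and 611.2 kb apart without IGF2BP3, with the OAS3 peak between them. The longer of the gaps on either side of that peak was 113.8 kb without IGF2BP1, longer than 89.2% of the gaps in that list, and 518.6 kb without IGF2BP3, longer than 98.9%.

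OASL (identifier 8638) lies 8.01 Mb from this cluster, at chr12:121017761-121039246, and had 3 regions near it, each in all 4 lists. As background, it is transcribed towards lower coordinates, so its higher-coordinate end is its start. The peak at that end spanned chr12:121038568-121039317 in the control (750 bp), chr12:121038793-121039604 without IGF2BP1 (812 bp) and chr12:121038836-121039494 without IGF2BP2 (659 bp). In the IGF2BP3 knockout it spanned chr12:121038814-121039228 (415 bp), which stopped 18 bp short of the gene end. The IGF2BP3 knockout was the low list, at 0.553 of the control width, and the others were at 1.08 (IGF2BP1) and 0.879 (IGF2BP2). In percentiles, the control (47.7), the IGF2BP1 knockout (47.7) and the IGF2BP2 knockout (51.1) lay close together, and the IGF2BP3 knockout was at 12.4.

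Of the other 2 regions near OASL, 1 is not reported here. The other site, 7.21 kb beyond the higher-coordinate end of OASL, outside annotated genes (chr12:121046453-121046952 in the control), measured 500 bp in the control, 522 bp without IGF2BP1, 486 bp without IGF2BP2 and 280 bp without IGF2BP3. The last value was the lowest, at percentile 1.03 of its list.

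EIF2AK2 (identifier 5610, chr2:37099210-37156980, minus strand) had 1 region, over its start, in all 4 lists. It spanned chr2:37156138-37157531 in the control (1394 bp), chr2:37156104-37157647 without IGF2BP1 (1544 bp), chr2:37156078-37157531 without IGF2BP2 (1454 bp) and chr2:37156252-37157491 without IGF2BP3 (1240 bp). The peak stood at width percentiles 89.8, 91.8, 94.8 and 86.0 in the same order. High percentiles were usual for start-site peaks, whose medians over all genes were 79.1, 81.8, 85.6 and 81.7. Among start-site peaks alone, EIF2AK2 stood at percentiles 75.4, 76.5, 81.1 and 62.6. It extended 511 to 667 bp before the start and 728 to 902 bp after it, and so held the ISRE core at the start in each list. No further peak lay in the 57.77 kb body of this kinase gene or within 10 kb of it.

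ADAR (identifier 103, chr1:154582057-154627997, minus strand) had peaks at both of its groups of annotated starts, which lie 19.2 kb apart. As background, ADAR is known to use separate promoters for an interferon-inducible long form and a constitutive short form, and the peak lists do not measure which form is made. The outer peak (chr1:154626983-154628196 in the control) measured 1214 bp in the control, 1162 bp without IGF2BP1, 1213 bp without IGF2BP2 and 1347 bp without IGF2BP3. The outer region also overlapped the long non-coding RNA gene LOC124904427. The inner peak (chr1:154607563-154609040 in the control) measured 1478, 1578, 1297 and 1307 bp in the same order. The inner peak was the wider of the pair in the control (1.22 times), the IGF2BP1 knockout (1.36 times) and the IGF2BP2 knockout (1.07 times), but not without IGF2BP3 (0.970). Both peaks reached mainly into the transcribed side. The outer one extended 129 to 208 bp before its start and 1004 to 1194 bp after it. The inner one extended 97 to 253 bp before its start and 1043 to 1324 bp after it. Whether these stretches are exonic or intronic was not determined, because the gene table gives no exons.

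The IGF2BP2 knockout list alone had a further peak inside ADAR, at chr1:154611689-154612138 (450 bp, percentile 19.3). Regions in this list alone made up 12.0% of those within 10 kb of a protein-coding gene. Of 8867 peaks of like width in that list, 32.2% had no counterpart in any other list.

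**Figure D2:**
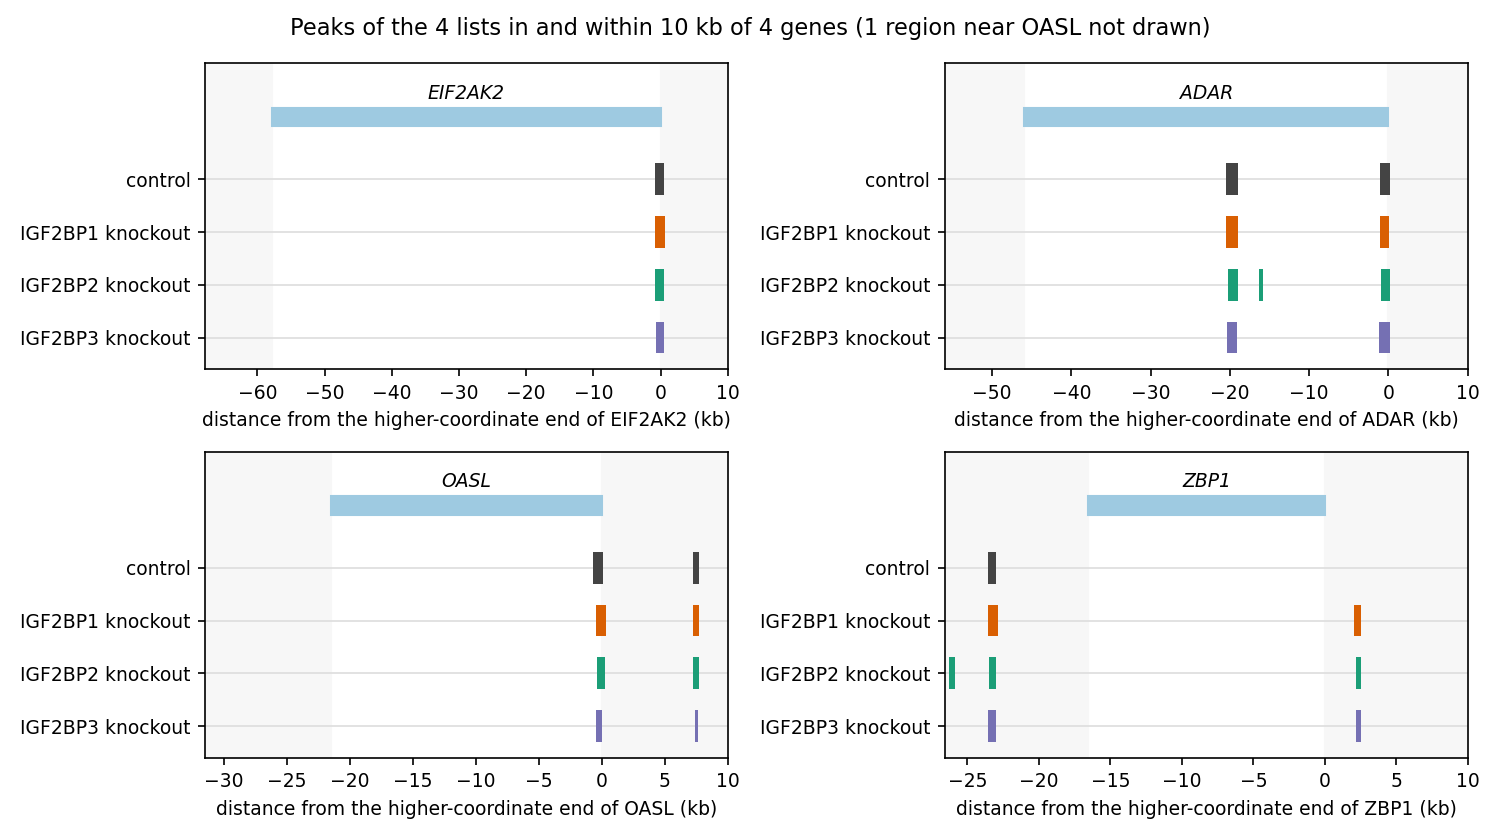
Peaks (coloured bars, to scale) of the 4 lists in EIF2AK2, ADAR, OASL and ZBP1 and within 10 kb (grey), as distance in kb from the end of each gene at higher coordinates, with gene bodies in blue and 1 region near OASL not drawn. EIF2AK2, ADAR and OASL carry a peak at that end in every list, and ZBP1 has a peak 2 kb beyond it in the 3 knockout lists.

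**Figure D3:**
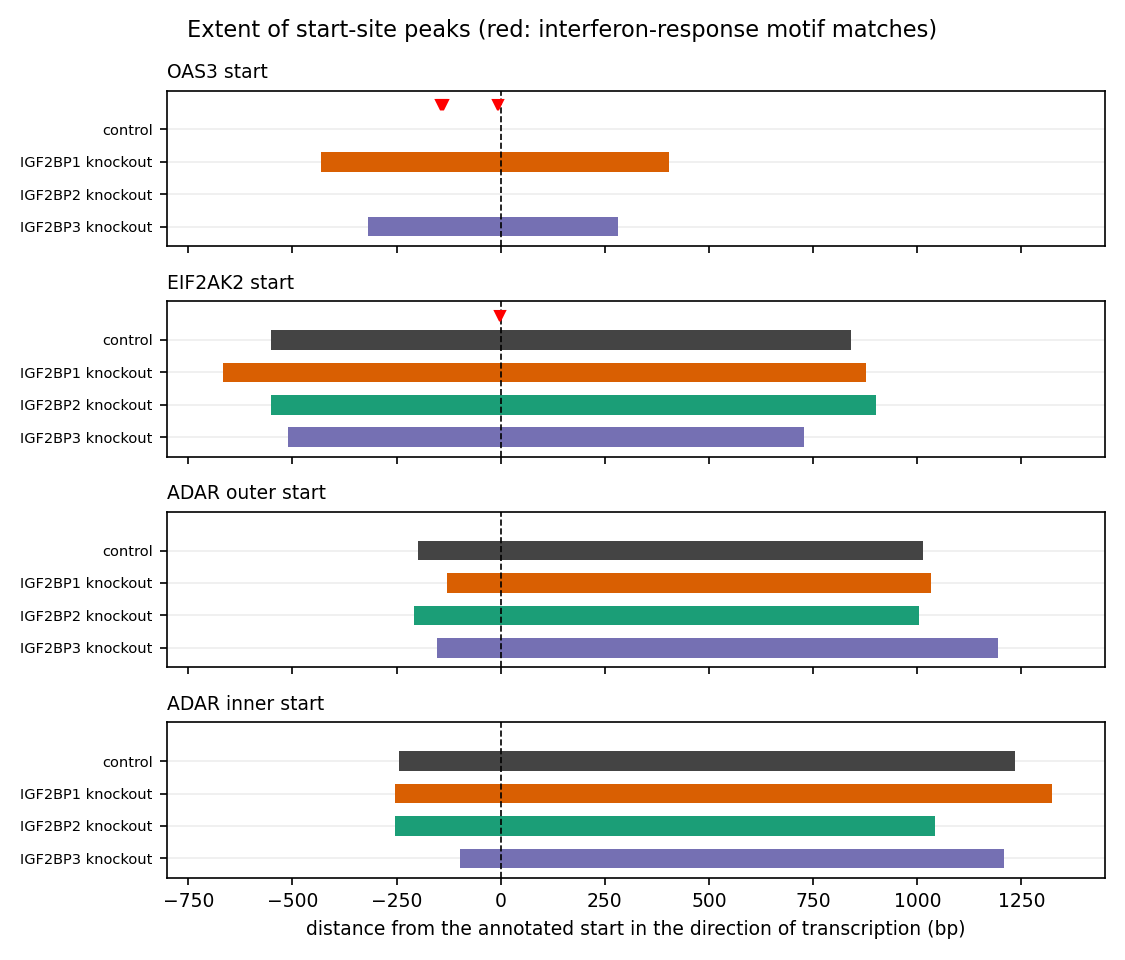
Extent of the peak over each annotated start, in bp from the start in the direction of transcription, for OAS3, EIF2AK2 and the outer and inner starts of ADAR in the 4 lists, with red marks at GAAA pairs 1 or 2 bases apart. OAS3 has no bar in the control and the IGF2BP2 knockout, and the ADAR peaks extend at least 1004 bp after their starts.

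ZBP1 (identifier 81030, chr20:57603852-57620426) had no peak in its body or within 1 kb of either end in any list. A site 2.02 kb beyond its higher-coordinate end, which as background is its start, was in the 3 knockout lists and not in the control. The peak spanned chr20:57622441-57622923 without IGF2BP1 (483 bp), chr20:57622606-57622942 without IGF2BP2 (337 bp) and chr20:57622609-57622924 without IGF2BP3 (316 bp). These were among the narrowest peaks of their lists, at percentiles 8.13, 6.26 and 2.87. Of peaks of like width, 59.9%, 73.6% and 56.9% in the same lists had no control counterpart. These shares take each list on its own, whether or not the other knockout lists held the peak. They therefore do not describe sites held by every knockout list. Of the regions within 10 kb of a protein-coding gene, 2538 (5.65%) were likewise in every knockout list but missing from the control. A further 21959 (48.9%) were in all 4 lists.

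On the other side of ZBP1, a site 6.3 kb from the gene (chr20:57596886-57597424 in the control) was in all 4 lists. It measured 539 bp in the control, 673 bp without IGF2BP1, 514 bp without IGF2BP2 and 530 bp without IGF2BP3. The IGF2BP1 knockout was the highest, at 1.25 times the control. A further site, 9.3 kb from the gene at chr20:57594157-57594547 (391 bp, percentile 12.2), was in the IGF2BP2 knockout list alone, and 38.5% of peaks of like width in that list had no counterpart elsewhere. All 3 sites lay outside annotated genes.

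**Figure D4:**
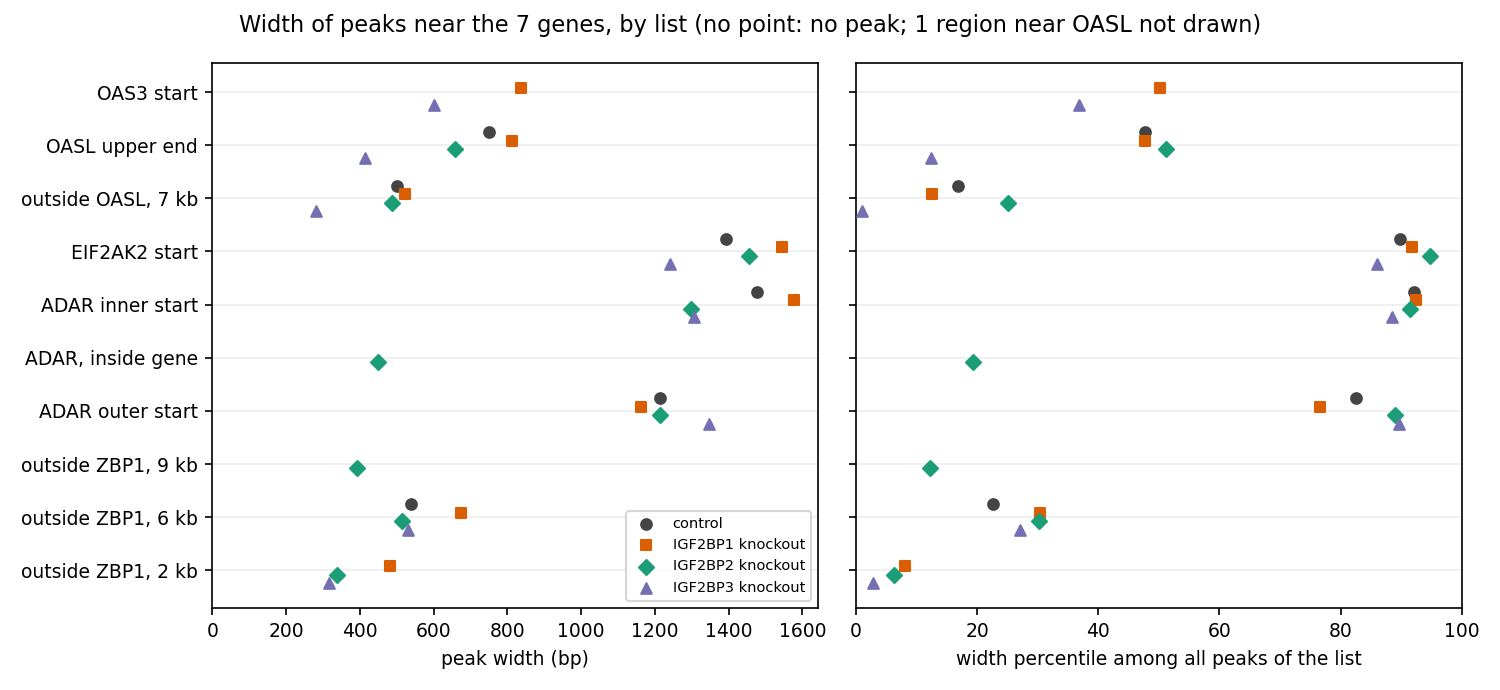
Width in bp (left) and width percentile within the list (right) of the peaks near the 7 genes, by region and list, with 1 region near OASL not drawn. EIF2AK2 and both ADAR starts hold the widest peaks, and both regions drawn at OASL are narrowest without IGF2BP3.

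Widths of start-site peaks were next compared with those of all genes that had a peak in both lists. In the IGF2BP1 knockout the median ratio to the control over 12710 genes was 1.07 (quartiles 1.00 and 1.18). EIF2AK2 stood at 1.11 and OASL at 1.08, both inside the quartiles, and ADAR at 0.957, with 14.0% of genes lower. In the IGF2BP2 knockout the median over 12588 genes was 0.996 (0.897 and 1.08). EIF2AK2 at 1.04 and ADAR at 0.999 lay inside the quartiles, and OASL at 0.879 just below them. In the IGF2BP3 knockout the median over 12564 genes was 0.997 (0.904 and 1.09). OASL at 0.553 lay far below the quartiles, with 2.01% of genes lower. EIF2AK2 at 0.890 lay slightly below the quartiles, and ADAR at 1.11 slightly above. In each knockout at least 1 of these members lay on either side of the median of all genes. The 3 comparisons share the control list.

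**Figure D5:**
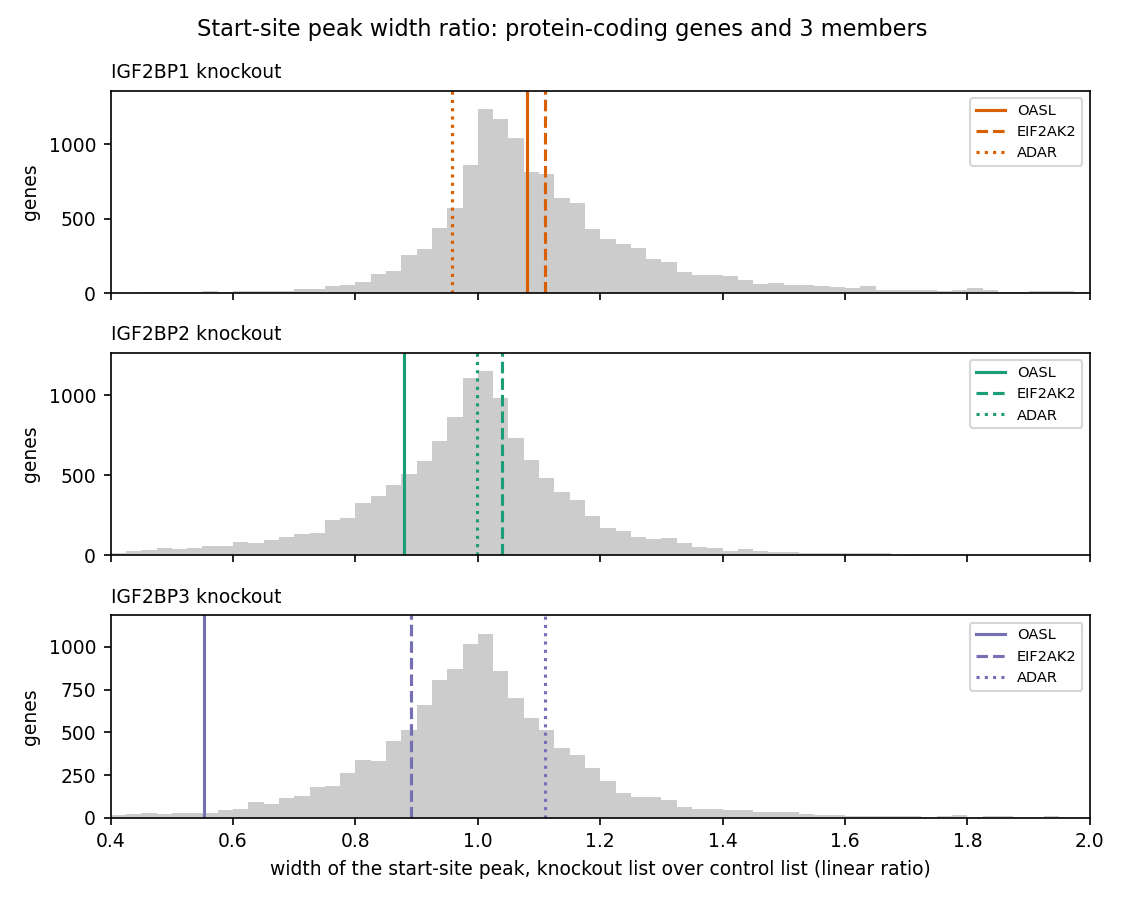
Histograms (grey) of the width of the start-site peak in each knockout list over that in the control list, a linear ratio, for 12564 to 12710 protein-coding genes, with lines at OASL, EIF2AK2 and ADAR. OASL without IGF2BP3 (0.553) lies in the lower tail. The axis runs from 0.4 to 2.0, and 13, 133 and 93 genes below it and 262, 54 and 93 above it (IGF2BP1, IGF2BP2 and IGF2BP3 knockouts) are not drawn.

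Genes with the most similar start-site peaks were looked for among the 12353 genes with a peak in all 4 lists, by the mean absolute difference of the 4 width percentiles. Nearest to EIF2AK2 were FAHD2A (0.66 percentile points), REEP4 (0.788) and RARG (0.821). Nearest to ADAR were DENND4A (0.519), PTPRO (1.11) and CA5B (1.36). OASL had less close neighbours, among them RPL13 (2.84) and CACNG7 (3.12). With 4 values per gene, this is a description of width alone.

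Other genes of the dsRNA response were given by a list of 24, which covered partners, effectors and relatives of the members. Of these, 22 had a start-site peak in all 4 lists (91.7%, against 61.7% of all genes) and 2 had one in no list. The latter were the kinase gene RIPK3 and MLKL, named after their values were seen. RIPK1, of the same cell death pathway, had peaks of 1136, 1081, 1071 and 1118 bp in the control and the knockouts in order. STAT2 and IRF9, which carry the interferon signal to the ISRE, had start-site peaks in all lists, and those of STAT2 measured 866 bp in the control, 944 bp without IGF2BP1, 921 bp without IGF2BP2 and 934 bp without IGF2BP3. So did the kinases EIF2AK1, EIF2AK3 and EIF2AK4, relatives of EIF2AK2. The peak was wider than in the control at 19 of the 22 genes without IGF2BP1 (median ratio 1.12), where 75.6% of all genes were wider. It was wider at 9 without IGF2BP2 (0.974), where 48.1% of all genes were wider, and at 11 without IGF2BP3 (1.00), where 48.6% were.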

How the data were processed

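Members and gene lists were chosen with earlier results of these data known. Per the submitters' processing notes, the tools were fastp 0.24.1, BWA 0.7.17, MACS2 3.0.0 and bedtools, and the build was GRCh38. Settings, any shift for Tn5 insertion and how libraries were joined into lists are not given in the sources used here. The lists the authors deposited hold 3 columns (chromosome, start, end). From these, positions counted from 1, widths and width percentiles (ties at mid-rank) were computed in Python 3.11.15 with pandas 2.3.3, and the interval steps were tested on simulated data. Genes and promoters came from RefSeq tables (GRCh38.p14). Starts were annotated for 15843 genes, and for the other 4194 both ends were used. By rule, all 7 genes and their regions were named, with the 3 genes nearest in width percentile and any listed gene with a start-site peak in some lists only, of which there were 0. RIPK3, MLKL, STAT2, IRF9 and the EIF2AK kinases were named after their values were seen. Some listed genes, 1 gene near OASL in width percentile and 1 region near OASL are not reported here beyond their place in the counts. Alternatives changed the distance, the overlap, the start-site window, the width measure and the length of the lists. Depth was unknown, so no intervals were computed for peaks.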

Additional observations from a re-analysis of the deposited data

How the results depend on the processing

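No paired analysis was possible because the deposited lists hold 1 list per group and no values per library; leaving out a library could not be run either. The number of regions in all 4 lists (7) was 5 with the 39194 widest peaks of each list, of 8 regions left, and 7 under each of the other overlap rules. The members with a start-site peak numbered 3, 4, 3 and 4 with windows of 0.5 and 2 kb and with the widest peaks, and 2, 3, 2 and 3 of 4 among members with a known strand, a setting added after seeing the data. Of all 15843 genes with a known strand, 65.9%, 67.6%, 67.3% and 66.4% had one in the same lists. For the other windows and the widest peaks, shares over all genes are not given here. The OAS3 peaks were among the widest peaks kept. The 3 peaks beside the ZBP1 start and the peaks in the IGF2BP2 knockout alone were not. Peaks near the members (7, 9, 10 and 9) numbered 4, 5, 5 and 5 in gene bodies alone and 13, 17, 18 and 16 within 25 kb. With the widest peaks, a cut that takes peaks from the knockout lists alone, they numbered 7, 7, 5 and 7. Divided by the ratio of list medians (0.844), the IGF2BP2 knockout width ratios became 1.04 for OASL, 1.18 for ADAR and 1.24 for EIF2AK2. OASL and ADAR thereby turned from narrower to wider than the control. That divisor is taken over all peaks of the lists, whereas the median ratio of start-site peaks over 12588 genes was 0.996. With all peaks near either gene end summed, OASL in the IGF2BP3 knockout was at 0.259. A further peak beyond the lower-coordinate end, opposite the start, then counts in the other lists. In the IGF2BP3 knockout list that peak fell outside the 1 kb window and was not counted, so 0.259 reflects the window. Among start-site peaks alone, percentiles (control, then knockouts in order) were 11.6, 11, 11 and 1.72 for OASL, 75.4, 76.5, 81.1 and 62.6 for EIF2AK2, and 59.4, 42.7, 62.6 and 71.5 for ADAR. They were 12.6 and 7.25 for OAS3 in the IGF2BP1 and IGF2BP3 knockouts.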

Other observations

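Between 10 and 25 kb from the members there were 8 further regions, 6 of them in all 4 lists, where 41.5% of all regions were. So few regions do not set these surroundings apart. A region 13.6 kb from ADAR, overlapping CHRNB2 (a nicotinic acetylcholine receptor subunit), was in the 3 knockout lists and missing from the control. Its peaks measured 797 bp without IGF2BP1, 601 bp without IGF2BP2 and 325 bp without IGF2BP3, at percentiles 46.1, 43.6 and 3.52. Of the regions within 10 kb of a protein-coding gene, 5.65% were in the same lists only. A region 11.3 kb from EIF2AK2, in the sulfotransferase gene SULT6B1, was found in the lists without IGF2BP1 (378 bp) and without IGF2BP2 (344 bp) and in neither of the others. These peaks were narrow, at percentiles 2.41 and 7.01, and the lists that held them were the longest. The share of all regions with this pattern is not given here. Beyond ZBP1, a region 23.2 kb away measured 1251 bp without IGF2BP3 (percentile 86.4) and 557 bp in the control, 855 bp without IGF2BP1 and 549 bp without IGF2BP2. These widths were not set against those of other regions.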
